A study of Mus musculus with 6 samples.

Results

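Malat1, Neat1, Gas5 and 9530059O14Rik are 4 genes classed as long noncoding, and they are described here in type 2 conventional dendritic cells (cDC2s) of the mouse spleen. They were taken by symbol from the deposited count table, where 4 of 4 were found among 14535 genes. They were chosen by their counts in these same libraries, with the difference between the genotypes already known, so for these 4 genes that difference is described and not tested. The IRF4-deficient cells came from mice with the genotype CD11c-Cre Irf4fl/fl, where Cre driven by the CD11c (Itgax) promoter recombines the floxed alleles of Irf4 in cells that express CD11c. The cells they were set against came from wild-type (WT) mice. There were 3 libraries of each, made from total RNA of C57BL/6 mice, of unstated age and sex. Without a group that has Cre and no floxed allele, effects of the transgene, of the floxed alleles and of Irf4 loss cannot be told apart. It is not stated whether replicates were separate mice; p-values then reflect the spread among these samples only, which could be technical.

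Long noncoding RNAs act as RNA: some scaffold bodies in the nucleus, some bind proteins or host small RNAs in their introns. Malat1 is a very abundant, nuclear-retained transcript of nuclear speckles, bodies rich in splicing factors. Neat1, its neighbour on the chromosome, is the scaffold on which paraspeckles are built. Gas5 carries small nucleolar RNAs (snoRNAs) in its introns, and its spliced RNA, which begins with a terminal oligopyrimidine (5′TOP) tract, is degraded by nonsense-mediated decay while it is translated; in human cells it was described to bind the glucocorticoid receptor. 9530059O14Rik is known by a cDNA clone name.

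Malat1 (ENSMUSG00000092341.3) lies on the minus strand of GRCm38 chromosome 19, at 5795690 to 5802672, and Neat1 (ENSMUSG00000092274.3) on the same strand at 5824708 to 5845478, with 22035 bases between them. Both are annotated as lincRNA in GENCODE M21, and the longest transcript of each is a single exon, of 6983 bases for Malat1 and 20771 bases for Neat1. Gas5 (ENSMUSG00000053332.13) spans 161034422 to 161038539 on the plus strand of chromosome 1, with 25 annotated transcripts. 9530059O14Rik (ENSMUSG00000097736.8) is a lincRNA gene on the plus strand of chromosome 9, at 122572499 to 122679596, whose 4 spliced transcripts start within a few bases of each other and cover 107098 bases.

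The ends of Malat1 and Neat1 are shown because Malat1 and the long form of Neat1 carry no ordinary poly(A) tail: in mammalian cells their 3′ ends are cut by RNase P before a tRNA-like small RNA and held in a triple helix of U-rich tracts and an A-rich tract. The fragments below run 5′ to 3′ on the minus strand of GRCm38 and come from the GENCODE M21 transcripts Malat1-201 (chr19:5795982-5796091) and Neat1-201 (chr19:5824708-5824817). Capitals mark the U-rich tracts and, as the last run, the shared A-rich tract, whose letters occur 1 time in each transcript.
Malat1 3′ end: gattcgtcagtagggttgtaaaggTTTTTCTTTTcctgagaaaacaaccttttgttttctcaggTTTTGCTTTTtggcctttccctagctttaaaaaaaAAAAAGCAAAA
Neat1 3′ end: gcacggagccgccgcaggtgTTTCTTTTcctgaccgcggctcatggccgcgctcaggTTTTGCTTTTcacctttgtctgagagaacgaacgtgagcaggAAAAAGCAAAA
The annotated Neat1 transcript stops at this tract, whereas that of Malat1 runs on for 292 bases. Reads on those bases are counted for Malat1 where the counting used this gene model. The bases that follow each tract, chr19:5795921-5795981 within Malat1-201 and chr19:5824652-5824707 in the small RNA gene Gm27702 next to Neat1, hold the tRNA-like part, with the stretch that resembles the T arm of a tRNA in capitals.
After Malat1: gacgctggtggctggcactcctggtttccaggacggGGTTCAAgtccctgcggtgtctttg
After Neat1: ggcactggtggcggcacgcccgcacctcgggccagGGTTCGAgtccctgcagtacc

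Promoters are shown for the members with a RefSeq entry (GRCm38.p6; Malat1, Gas5 and 9530059O14Rik, from 250 bases before to 50 after the start), since IRF4 binds DNA at interferon-stimulated response elements and at composite sites with ETS or AP-1 factors. The 50 bases from the start are in capitals. The windows are chr19:5802623-5802922 on the minus strand for Malat1, chr1:161034916-161035215 on the plus strand for the downstream start of Gas5, and chr9:122572251-122572550 on the plus strand for 9530059O14Rik.
Malat1 promoter: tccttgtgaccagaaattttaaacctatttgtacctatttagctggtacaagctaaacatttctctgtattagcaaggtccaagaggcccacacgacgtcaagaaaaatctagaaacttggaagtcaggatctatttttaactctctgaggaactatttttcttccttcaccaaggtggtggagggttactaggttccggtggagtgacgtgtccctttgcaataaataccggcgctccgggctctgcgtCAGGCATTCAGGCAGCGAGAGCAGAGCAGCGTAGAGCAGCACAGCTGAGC
Gas5 promoter: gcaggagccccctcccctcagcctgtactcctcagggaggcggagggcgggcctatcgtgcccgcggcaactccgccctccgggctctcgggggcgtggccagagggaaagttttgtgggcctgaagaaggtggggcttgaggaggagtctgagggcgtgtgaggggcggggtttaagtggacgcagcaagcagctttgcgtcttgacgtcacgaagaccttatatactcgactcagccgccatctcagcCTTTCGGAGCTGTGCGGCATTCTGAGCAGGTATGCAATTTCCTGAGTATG
9530059O14Rik promoter: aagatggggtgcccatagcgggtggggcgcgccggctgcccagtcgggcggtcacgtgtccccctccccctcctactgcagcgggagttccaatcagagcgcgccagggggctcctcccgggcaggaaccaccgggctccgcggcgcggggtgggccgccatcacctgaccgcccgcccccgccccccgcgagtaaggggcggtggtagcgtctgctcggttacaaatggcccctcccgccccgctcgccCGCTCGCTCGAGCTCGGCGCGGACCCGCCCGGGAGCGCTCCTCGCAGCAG
The GC content of these windows is 47.0% for Malat1, 62.0% for Gas5 and 75.7% for 9530059O14Rik. On both strands, none of the 3 windows held the letters of an interferon-stimulated response element (GAAA, any 2 bases, GAAA), a composite ETS-IRF element (GGAA, any 2 bases, GAAA) or an AP-1 site (TGANTCA). Nor did they hold a composite AP-1-IRF element, either adjoining (GAAA followed at once by TGANTCA) or spaced (TGANTCA, any 4 bases, GAAA). Of 32851 RefSeq promoter windows of the same length, 3.44% hold the first, 2.72% the second and 7.81% the AP-1 site, which is part of both composites; the adjoining composite is in 41 windows and the spaced one in 39. The cyclic AMP response element TGACGTCA, in 1.79% of windows, occurred in the Gas5 window from -46 to -39 relative to the start. A match of letters, or its lack in these 300 bases, is a description of sequence and shows nothing of binding in these cells.

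Total counts per library were 7949462 to 10609420 in IRF4-deficient cDC2s and 7421605 to 11459920 in WT cDC2s, with 13772 to 14043 genes detected. Irf4, the deleted gene, was at 65.3 to 90.8 CPM in IRF4-deficient libraries and 291.8 to 345.0 CPM in WT libraries, so each library matched its label. CPM here are counts relative to library sizes that TMM factors adjust by the bulk of genes. All 8 cDC2 markers (Itgax, Itgam, Sirpa, Flt3, Zbtb46, H2-Ab1, Cd209a and Clec4a4) were detected, and they summed to 10089 to 10599 CPM in IRF4-deficient libraries and 9496 to 10245 CPM in WT libraries. Within this sum 2 markers rose and 4 fell at an edgeR adjusted p under 0.05, and the other 2, Sirpa and Clec4a4, were not called. Itgam (CD11b) rose 3.03-fold (1868.6 ± 130.7 CPM in IRF4-deficient libraries and 617.3 ± 41.5 CPM in WT libraries, SD, n = 3 each) and Itgax 1.22-fold. Cd209a fell 2.48-fold, Zbtb46 1.92-fold, Flt3 1.65-fold and H2-Ab1 1.19-fold; H2-Ab1 was not called without IRF4-deficient replicate 1 or 2 or WT replicate 2 (adjusted p 0.0563 to 0.0944) or with library totals alone (0.0931). The 12 red pulp macrophage markers summed to 1774 to 3283 CPM in IRF4-deficient libraries and 1005 to 1337 CPM in WT libraries, with none at 0, and 7 of the 12 rose at an edgeR adjusted p under 0.05. At this threshold 9.87% of all genes tested rose and 10.5% fell. Of 5 plasmacytoid dendritic cell markers tested, 2 rose and 1 fell, and of 5 B cell markers 1 rose and 1 fell. For T cells 0 of 4 tested markers were called. Markers of several cell types thus move with the genotype, and their part in the values below was not tested. In RNA from whole cell samples, fewer cells of a type and less RNA per cell cannot be told apart.

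Malat1 was lower in IRF4-deficient cDC2s, at 54.1% of its WT level. It had 195634, 173497 and 141937 counts in IRF4-deficient replicates 1 to 3 and 205541, 425306 and 255980 counts in WT replicates 1 to 3. These were 1.84%, 2.18% and 1.64% of all counts in the IRF4-deficient libraries, against 2.76%, 3.71% and 3.45% in the WT libraries. The lowest WT share stood above the highest IRF4-deficient share, so the groups did not overlap, which was so for 35.6% of all 11934 genes tested on the CPM scale used below. The mean share was 1.89 ± 0.276% in IRF4-deficient libraries and 3.31 ± 0.491% in WT libraries (SD, n = 3 each). On the TMM scale the levels were 18005, 21442 and 15804 CPM in IRF4-deficient libraries and 28425, 38665 and 34964 CPM in WT libraries, a log2 fold change of -0.89 (SE 0.13), or a 1.85-fold lower level. By counts Malat1 ranked 2 in all 6 libraries, behind Rn45s, the ribosomal RNA precursor. With so many counts, its share in a library has a 95% counting interval (Wilson) of at most 0.0131 percentage points to either side, so its spread of 15.4% between IRF4-deficient and 15.2% between WT libraries (coefficient of variation) is far above counting error, which is all that such intervals cover.

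Neat1 had a smaller difference, and its groups overlapped. It had 4989, 4189 and 4497 counts in IRF4-deficient libraries, against 3462, 6814 and 5400 counts in WT libraries. As a share of counts this was 0.0470%, 0.0527% and 0.0519% in IRF4-deficient libraries and 0.0465%, 0.0595% and 0.0728% in WT libraries. WT replicate 1 was lower than 2 IRF4-deficient libraries on the CPM scale and lower than all 3 as a share. The levels were 459.2, 517.7 and 500.7 CPM in IRF4-deficient libraries and 478.8, 619.5 and 737.6 CPM in WT libraries. The means were 492.5 ± 30.1 CPM in IRF4-deficient cDC2s and 611.9 ± 129.6 CPM in WT cDC2s (SD, n = 3 each), with a log2 fold change of -0.31 (SE 0.13) that was -0.46 without WT replicate 1 and -0.16 without WT replicate 3. The coefficient of variation was 6.12% between IRF4-deficient libraries and 21.2% between WT libraries, where counting error alone would give 1.48% in IRF4-deficient and 1.38% in WT.

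Gas5 differed least. Its counts were 3410, 2425 and 2781 in IRF4-deficient libraries and 2641, 3607 and 2309 in WT libraries. The levels were 313.8, 299.7 and 309.6 CPM in IRF4-deficient libraries and 365.2, 327.9 and 315.4 CPM in WT libraries, which did not overlap, though the highest IRF4-deficient and the lowest WT library were nearly equal. As shares of all counts the groups did overlap, at 0.0321%, 0.0305% and 0.0321% in IRF4-deficient libraries and 0.0355%, 0.0315% and 0.0311% in WT libraries. The log2 fold change was -0.13 (SE 0.08), and -0.05 when libraries were scaled by their totals alone. Snord47, a snoRNA row inside a Gas5 intron, had 25, 22 and 21 counts in IRF4-deficient libraries and 17, 40 and 19 counts in WT libraries, which overlapped; the size selection of these libraries is not given.

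9530059O14Rik was close to undetected in IRF4-deficient cDC2s. It had 6, 10 and 2 counts in IRF4-deficient libraries, against 250, 574 and 433 counts in WT libraries. The levels were 0.552, 1.24 and 0.223 CPM in IRF4-deficient libraries and 34.6, 52.2 and 59.1 CPM in WT libraries. Every WT library was thus far above every IRF4-deficient library, and WT replicate 1 was the lowest of its group, as it was for Malat1 and Neat1. The fitted log2 fold change of -6.20 (SE 0.35), a 73.6-fold lower level, was the lowest of all 11934 genes tested. This rank describes a gene that was chosen with the difference known. The gene passed the filter on low counts through its WT libraries, and the fold rests on very few IRF4-deficient counts. From the summed counts, 18 in IRF4-deficient libraries and 1257 in WT libraries, the ratio of WT to IRF4-deficient scaled for depth was 76.4, with an exact 95% interval of 48.1 to 129.3 that covers counting error only. IRF4-deficient cells thus held 1.31% of the WT level (0.774 to 2.08%). This remainder is smaller than that of Irf4 itself, which had 80.0 ± 13.2 CPM in IRF4-deficient libraries and 310.9 ± 29.6 CPM in WT libraries (SD, n = 3 each), a 3.88-fold lower level (edgeR adjusted p = 1.45e-09), in counts over the whole gene that can include exons outside the deleted part.

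The microRNA gene Mir138-1 begins 3279 bases beyond the annotated end of 9530059O14Rik, on the same strand. Its row held 0, 0 and 0 counts in IRF4-deficient libraries and 1, 4 and 4 counts in WT libraries, too few to pass the filter for testing; a count of 0 allows up to 3 counts in a library. The counts are shown for their position next to the lowest member, and gene libraries of this kind do not measure mature microRNAs. The mature products (RefSeq, GRCm38.p6, plus strand, chr9:122682898-122682920 and chr9:122682936-122682957), with the seed, bases 2 to 8, in capitals, do not share a seed.
mmu-miR-138-5p: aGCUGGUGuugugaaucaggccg
mmu-miR-138-1-3p: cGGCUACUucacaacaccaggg

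**Figure D1:**
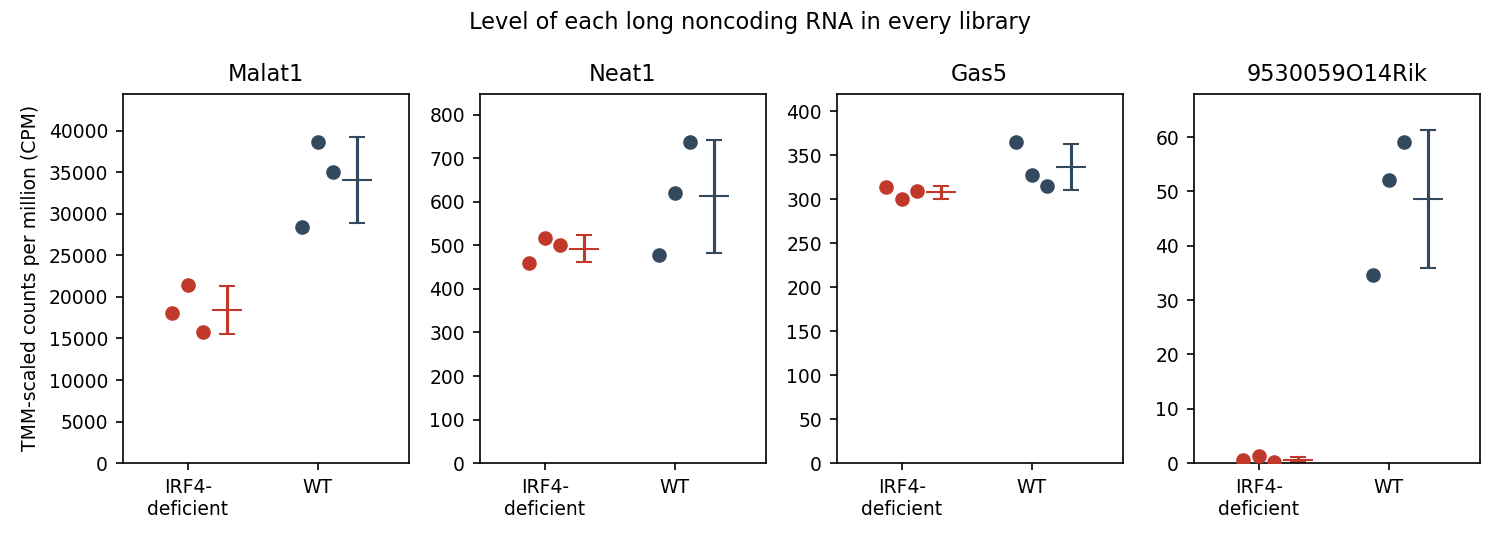
Level of Malat1, Neat1, Gas5 and 9530059O14Rik in each library, in TMM-scaled CPM (linear axes from 0, a scale for each gene). Points are libraries, replicates 1 to 3 from left to right, and bars give the mean ± SD (n = 3); the Malat1 groups are apart, the Neat1 groups overlap, the Gas5 groups lie close together and 9530059O14Rik is near 0 in IRF4-deficient libraries.

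Levels between genes can be compared only per length. Per kilobase of annotated exon sequence, Malat1 averaged 2637 CPM per kb in IRF4-deficient cDC2s and 4872 CPM per kb in WT cDC2s. Gas5 came next with 81.8 and 89.4 CPM per kb in IRF4-deficient and WT cells. Neat1 had 23.7 and 29.5 CPM per kb, in the same order, and 9530059O14Rik had 0.101 and 7.35. The order of these 4 levels was thus the same in both genotypes. Exon lengths of 6983 bases for Malat1, 3760 for Gas5, 20771 for Neat1 and 6620 for 9530059O14Rik were used, which assume that all annotated exon bases are transcribed; for Neat1, whose short isoform covers only the 5′ part, this sets a low figure. The same holds for Gas5, whose exon length comes largely from retained-intron models while its transcripts of type lincRNA are 346 to 665 bases long, so the order between Gas5 and Neat1 rests on the lengths used.

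Ratios between members within a library do not depend on how libraries are scaled. They can still depend on how RNA with and without a poly(A) tail was captured, and this was not tested. The ratio of Malat1 to Neat1 counts was 39.2, 41.4 and 31.6 in IRF4-deficient libraries, against 59.4, 62.4 and 47.4 in WT libraries. The ratio of Malat1 to Gas5 counts was 57.4, 71.5 and 51.0 in IRF4-deficient libraries and 77.8, 117.9 and 110.9 in WT libraries. Neither ratio overlapped between the genotypes, with Malat1 lower relative to both of the other 2. These ratios use the counts by which the members were chosen, so they describe the difference and do not test it. The ratio of Neat1 to Gas5 did overlap, at 1.46, 1.73 and 1.62 in IRF4-deficient libraries and 1.31, 1.89 and 2.34 in WT libraries.

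Xist, the long noncoding RNA that coats the inactive X chromosome and stays in the nucleus, was detected in all 6 libraries and gives a second abundant nuclear RNA to set Malat1 against. It stood at 5526, 6411 and 5417 CPM in IRF4-deficient libraries and 6218, 7112 and 7516 CPM in WT libraries, which overlapped. Xist fell by 0.26 on the log2 scale (SE 0.08, edgeR adjusted p = 0.0279), but was not called without IRF4-deficient replicate 1 or 3 or WT replicate 2 or 3 (adjusted p 0.0885 to 0.12) or with library totals alone (0.117). The ratio of Malat1 to Xist counts was 3.26, 3.34 and 2.92 in IRF4-deficient libraries and 4.57, 5.44 and 4.65 in WT libraries, without overlap. The ratio of Neat1 to Xist overlapped, at 0.0831, 0.0807 and 0.0924 in IRF4-deficient libraries and 0.0770, 0.0871 and 0.0981 in WT libraries. Set against Rn45s, Malat1 overlapped too, with ratios of 0.249, 0.287 and 0.311 in IRF4-deficient libraries and 0.291, 0.477 and 0.487 in WT libraries. Rn45s held 7.39%, 7.61% and 5.26% of counts in IRF4-deficient libraries and 9.48%, 7.78% and 7.09% in WT libraries; these shares vary between libraries of the same genotype, and their part in the Malat1 ratio was not tested.

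**Figure D2:**
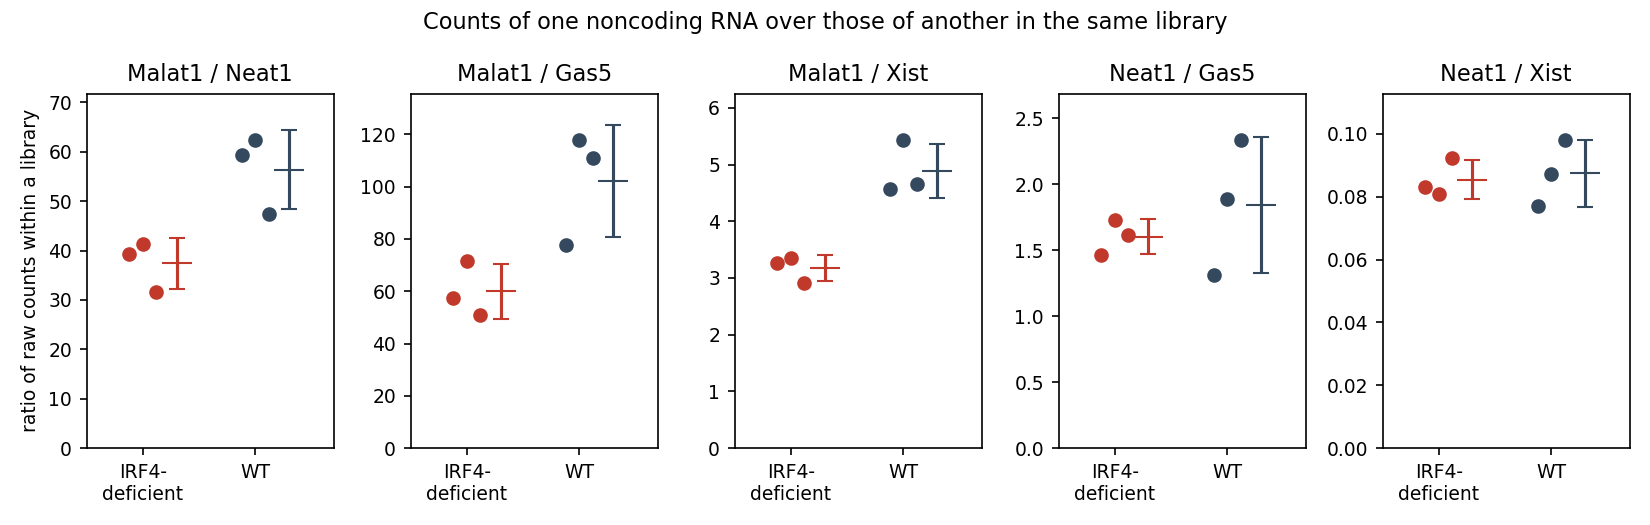
Ratios of raw counts within each library (linear axes from 0) for Malat1 over Neat1, Gas5 and Xist, and for Neat1 over Gas5 and Xist. Points are libraries, replicates 1 to 3 from left to right, and bars give the mean ± SD (n = 3); the ratios with Malat1 on top do not overlap between genotypes, and those with Neat1 on top do.

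The genes most like each member were found by Pearson's r of log2(CPM + 0.5) over the 6 libraries, among genes with a mean of at least 5 CPM. The 5 most like Malat1 were Cacna1s, Pomgnt1, Adrbk2, Efr3a and Slc12a3, with r of 0.998 to 0.992. For Neat1 they were Ikzf5, Tstd2, Pi4k2b, Dnajc3 and Pigg, with r of 0.994 to 0.980. For Gas5 they were Rraga, Ppp2r3d, Dph5, Pnrc1 and Camk2d, with r of 0.975 to 0.959. For 9530059O14Rik they were Cybasc3, Gdap10, Map2k6, Serpinb9 and Cacna1e, with r of 0.9996 to 0.9986. The 6 points of each r share their genotype groups and depths. For Malat1 and 9530059O14Rik, a gene that is cleanly lower in IRF4-deficient libraries therefore tends to score high. Neat1 has groups that overlap, and those of Gas5 lie close together. For deviations from the group means, r was 0.957 to 0.998 for the genes of Malat1 and 0.976 to 0.996 for Neat1. It was 0.925 to 0.953 for Gas5 and 0.943 to 0.992 for 9530059O14Rik. Each set of 5 holds the highest r of all genes compared. The r of deviations uses the same 6 libraries, so high values follow in part from that choice and test nothing. This holds most for Neat1 and Gas5, where the genotypes differ little. Gdap10, a lincRNA gene on chromosome 12, is the noncoding gene among these 20. It stood at 57.3, 61.5 and 52.8 CPM in IRF4-deficient libraries and 132.3, 142.1 and 146.8 CPM in WT libraries, without overlap (edgeR adjusted p = 5.63e-08). A gene picked for its likeness to 9530059O14Rik tends to differ in this way, so here these values only describe it.

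Other long noncoding genes, which the choice of members did not use, were set beside them. They too were lower more often than higher: 270 of 495 were tested, 195 of the 270 (72.2%) had a log2 fold change below 0, against 49.7% of all genes, and their median was -0.32, against 0.00 over all 11934 genes tested. At an edgeR adjusted p under 0.05, 3 rose and 29 fell. Among all genes tested, 2429 (20.4%) were called, 1178 higher (9.87%) and 1251 lower (10.5%); with libraries scaled by their totals alone this split was 1605 and 1005, and that of the long noncoding genes 4 and 26. Pooled over all levels of expression, 10.7% of the long noncoding genes fell, against 10.5% of all genes, and 1.11% rose, against 9.87%. In 23.7% of them every IRF4-deficient library was below every WT library, against 18.1% of all genes tested, and in 4.44% every one was above, against 17.5%; in either direction the groups of 35.6% of all genes did not overlap. The set holds genes that GENCODE M21 types as long noncoding and RefSeq does not type as protein-coding.

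The shift was present at each level of expression. Under 5 CPM the median log2 fold change was -0.39 for 135 long noncoding genes and -0.06 for all genes. From 5 to 50 CPM it was -0.28 for 119 long noncoding genes and 0.02 for all genes, and at 50 CPM or more it was -0.28 for 16 long noncoding genes and -0.01 for all genes. The share called lower depended on the level: it was 4.44% of long noncoding genes against 5.06% of all genes under 5 CPM, 15.1% against 7.91% from 5 to 50 CPM, and 31.2% (5 of 16) against 17.3% at 50 CPM or more. The share called higher was below that of all genes in each band, at 1.48% against 6.60%, 0.840% against 8.69% and 0% against 13.4%. Protein-coding genes had a median of 0.01. Typed by RefSeq as lncRNA, 317 were tested, 5 rose, 36 fell and the median was -0.33, and the 67 of GENCODE type lincRNA had 1 that rose, 9 that fell and a median of -0.29. Antisense genes, which without a known strand setting cannot be told apart from their partners, had a median of -0.33 over 92 tested. Summed without Xist, the long noncoding genes took 0.294% to 0.316% of counts in IRF4-deficient libraries and 0.347% to 0.390% in WT libraries, without overlap. With Xist they took 0.860%, 0.967% and 0.877% of counts in IRF4-deficient libraries and 0.951%, 1.049% and 1.131% in WT libraries, which overlapped.

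**Figure D3:**
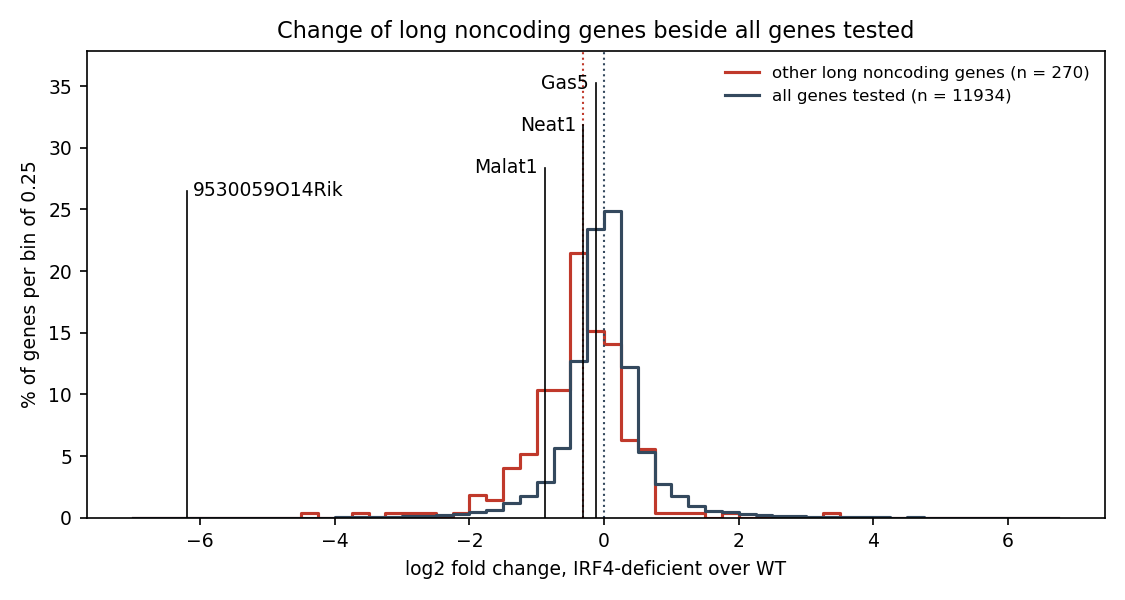
Distribution of log2 fold changes, IRF4-deficient over WT (bins of 0.25, % of genes in each), for 270 other long noncoding genes and all 11934 genes tested, with dotted lines at the medians of -0.32 and 0.00. Vertical lines mark the 4 members: Gas5 and Neat1 lie within the bulk, Malat1 on its lower side and 9530059O14Rik apart from it at -6.20.

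By name, the largest decreases with a mean of at least 5 CPM and groups that did not overlap were in Gm8817, 4933400F21Rik, 9130019P16Rik, Gm5086, 4933431G14Rik, AU040972, 5830428M24Rik and Gdap10, with log2 fold changes of -3.03 to -1.30. None of them came near that of 9530059O14Rik. Gm8817, a lincRNA gene of the X chromosome at 167063194 to 167070380, had 1.38, 1.11 and 2.23 CPM in IRF4-deficient libraries and 11.6, 14.4 and 12.98 CPM in WT libraries (8.20-fold lower, edgeR adjusted p = 2.19e-06). Gm5086 had 8.65, 18.4 and 17.7 CPM in IRF4-deficient libraries and 53.0, 51.7 and 41.0 CPM in WT libraries (3.29-fold lower, edgeR adjusted p = 5.59e-05). Gm13710 was the increase that met the same conditions, with 3.77, 12.2 and 10.02 CPM in IRF4-deficient libraries and 1.80, 2.45 and 2.73 CPM in WT libraries (log2 fold change 1.88, SE 0.43, edgeR adjusted p = 0.00344). Among the well-known long noncoding RNAs, 15 were tested and 1, Xist, fell; Tug1 (233.8 CPM in IRF4-deficient libraries and 271.2 CPM in WT libraries) and the imprinted antisense RNA Kcnq1ot1 (219.2 and 262.6 CPM) had an edgeR adjusted p of 0.0854 and 0.104. Tug1 passed without IRF4-deficient replicate 3 (0.0427), and Kcnq1ot1 without IRF4-deficient replicate 2 (0.0385) or WT replicate 1 (0.0369).

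The protein-coding neighbours, 5 on each side of each member, were called about as often as other genes: of 28 tested, 4 rose and 2 fell (21.4%), against 20.4% of all genes. Malat1 and Neat1 share their neighbours, of which 9 were tested. Frmd8, 4224 bases from Neat1 on the same strand, rose to 53.8, 59.1 and 53.6 CPM in IRF4-deficient libraries, against 35.0, 29.1 and 33.6 CPM in WT libraries (1.71-fold, edgeR adjusted p = 0.00036), which is the opposite direction to Malat1. Without a known strand setting, reads of overlapping genes cannot be told apart; no other gene of the table overlaps Malat1 or Neat1 in GENCODE M21.

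Around Gas5, the zinc finger gene Zbtb37 starts head to head with it, and the 2 gene models overlap. Zbtb37 had 24.5 ± 4.51 CPM in IRF4-deficient libraries and 25.9 ± 3.97 CPM in WT libraries (SD, n = 3 each) and was not called. Farther out, Rabgap1l, a Rab GTPase-activating protein, fell to 42.5, 41.4 and 36.9 CPM in IRF4-deficient libraries, against 80.2, 95.5 and 100.3 CPM in WT libraries (2.28-fold lower, edgeR adjusted p = 1.2e-06). Tnfsf4, which encodes the costimulatory ligand OX40L, rose to 6.17, 9.02 and 7.57 CPM in IRF4-deficient libraries, against 0.415, 1.09 and 1.502 CPM in WT libraries (7.40-fold, edgeR adjusted p = 0.000122). Klhl20 rose 1.29-fold (edgeR adjusted p = 0.0298) but was not called without IRF4-deficient replicate 3 or any of the WT replicates 1, 2 and 3 (adjusted p 0.051 to 0.128).

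The genes beside 9530059O14Rik kept most of their level while it was nearly lost. Abhd5, 190975 bases below it, which encodes a lipase activator, had 19.2 ± 3.13 CPM in IRF4-deficient libraries and 16.6 ± 2.37 CPM in WT libraries and was not called. Zfp445, 164933 bases above it, which encodes a zinc finger protein of imprinted loci, had 170.8 ± 12.2 CPM in IRF4-deficient libraries and 208.8 ± 18.7 CPM in WT libraries (SD, n = 3 each). It fell 1.22-fold (edgeR adjusted p = 0.039) and was not called without IRF4-deficient replicate 1 or 3 or WT replicate 2 or 3 (0.0568 to 0.191), or with library totals alone (0.135). Kif15, a mitotic kinesin, rose 1.46-fold (edgeR adjusted p = 0.00556).

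**Figure D4:**
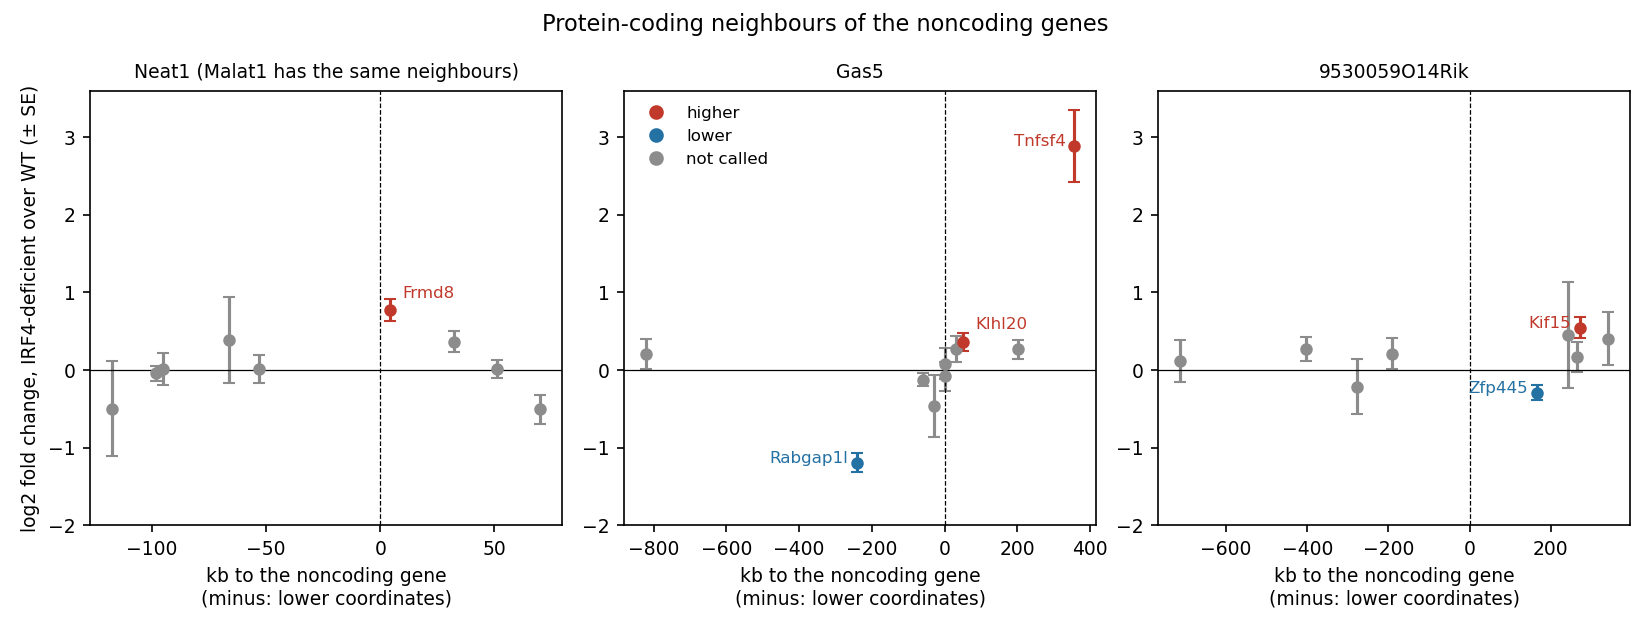
Log2 fold change, IRF4-deficient over WT, with its SE, of the tested protein-coding neighbours against their distance in kb from Neat1, Gas5 and 9530059O14Rik (0 where they overlap). Colours mark genes called higher, lower or not called; the neighbours of 9530059O14Rik stay between -0.29 and 0.55.

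Gene lists for the pathways in which the members act were read against the same 20.4% of all genes. Over 9 lists with 185 tested genes, 9 rose and 13 fell (11.9%), with a median log2 fold change of 0.02. Of 36 nuclear speckle and splicing factors, the compartment of Malat1, 1 rose and 5 fell (16.7%), with a median of -0.07. Most of these factors stood at 50 CPM or more, where 30.7% of all genes were called, 13.4% higher and 17.3% lower. Srsf11, an SR-related splicing protein, fell to 355.8, 395.0 and 391.1 CPM in IRF4-deficient libraries, against 544.6, 552.3 and 583.1 CPM in WT libraries (1.47-fold lower, edgeR adjusted p = 3.82e-05). Clk1, the kinase that phosphorylates SR proteins, fell 1.48-fold (edgeR adjusted p = 0.000104), the splicing factor Srsf6 fell 1.34-fold (0.00114) and the speckle core protein Son fell 1.23-fold (0.00556). In these 4 genes, which have the smallest p of the list, every IRF4-deficient library was below every WT library. This was so for 18.1% of all genes tested. It was also so for Tra2a and for uncalled genes of the list such as Srsf7, Sf3b1 and Rbm39. In Srsf2 and Prpf8 every IRF4-deficient library was above every WT library. Tra2a fell (log2 fold change -0.34, adjusted p 0.0234), and Srsf2 rose (0.24, adjusted p 0.0416); Tra2a was not called without IRF4-deficient replicate 1 or 2 or WT replicate 2 or 3 (0.0522 to 0.118) or with library totals alone (0.0804), nor Srsf2 without IRF4-deficient replicate 1 or 2 or any of the WT replicates 1, 2 and 3 (0.06 to 0.151).

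Of 32 paraspeckle proteins, which assemble on Neat1, 2 rose and 1 fell, with a median of 0.01. Runx3, a transcription factor also central to immune cells, rose to 408.3, 360.5 and 458.6 CPM in IRF4-deficient libraries, against 339.0, 293.9 and 309.0 CPM in WT libraries (log2 fold change 0.38, edgeR adjusted p = 0.00646). Smarcc1, a chromatin remodeller subunit, rose (0.33, adjusted p 0.0425) and Hnrnph3, an RNA-binding protein, fell (-0.64, adjusted p 0.0458). Smarcc1 was not called without IRF4-deficient replicate 1 or 2 or WT replicate 1 or 2 (0.128 to 0.184), nor Hnrnph3 without IRF4-deficient replicate 1 or 3 or WT replicate 2 or 3 (0.0628 to 0.162), with library totals alone (0.0735), with Malat1 and Rn45s left out of library sizes (0.0506) or by DESeq2 (0.0503). Of 11 subunits of RNase P and RNase Z, which process the 3′ ends of Malat1 and long Neat1, edgeR called 0; 0 had an unadjusted p under 0.05 and DESeq2 called 0, with a median of 0.13.

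For RNA turnover, 1 of 23 subunits and adaptors of the nuclear RNA exosome fell and 0 rose, with a median of 0.14. It was Zfc3h1, the zinc finger protein that links polyadenylated nuclear RNA to the exosome, with 395.8, 363.5 and 439.9 CPM in IRF4-deficient libraries and 525.8, 612.2 and 717.9 CPM in WT libraries (log2 fold change -0.63, SE 0.10, edgeR adjusted p = 0.000274). Of 18 writers, readers and erasers of N6-methyladenosine, a mark that Malat1 and Xist carry, 2 rose and 1 fell, with a median of -0.07. The demethylase gene Fto rose 1.78-fold to 29.5 CPM in IRF4-deficient libraries, against 16.5 CPM in WT libraries (edgeR adjusted p = 0.00282). Mettl14, of the methyltransferase, rose (log2 fold change 0.43, adjusted p 0.0304; 0.109 to 0.115 without IRF4-deficient replicate 1 or WT replicate 1 or 2), and the reader Ythdf3 fell (-0.30, adjusted p 0.0182; 0.0514 to 0.0859 without IRF4-deficient replicate 1 or WT replicate 2 or 3, and 0.0785 with library totals alone).

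Around Gas5, 11 other noncoding hosts of snoRNAs were tested and edgeR called 0. Of these 1, Snhg7, had an unadjusted p under 0.05, DESeq2 called 0, and the median log2 fold change was 0.21. Snhg8, with 22.8 CPM in IRF4-deficient libraries and 30.0 CPM in WT libraries, passed only without WT replicate 3 (edgeR adjusted p = 0.0324). Of 16 nonsense-mediated decay factors, which limit spliced Gas5, 0 rose and 2 fell: the kinase Smg1 (log2 fold change -0.26, edgeR adjusted p = 0.0365) and the exon junction protein Casc3 (-0.35, 0.0128), with a list median of -0.07. Smg1 was not called without IRF4-deficient replicate 1 or 3 or WT replicate 2 or 3 (0.0633 to 0.163) and Casc3 without IRF4-deficient replicate 2 or WT replicate 3 (0.0537 to 0.0687); with library totals alone neither was called (0.147 and 0.0523). Of 20 non-ribosomal 5′TOP mRNAs, 1 rose and 1 fell, with a median of 0.06. Nap1l1, a histone chaperone, fell to 317.5, 285.0 and 303.9 CPM in IRF4-deficient libraries, against 390.1, 391.6 and 399.4 CPM in WT libraries (edgeR adjusted p = 0.00184). The elongation factor subunit Eef1b2 rose (log2 fold change 0.31, adjusted p 0.0413; 0.054 to 0.225 without IRF4-deficient replicate 1 or 2 or WT replicate 2 or 3).

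Of 19 glucocorticoid-induced genes, 3 rose and 2 fell (26.3%), with a median of 0.14, and the rest were not called. The members at 200 CPM or more, Dusp1 and Zfp36, were among those not called, and their groups overlapped. Dusp1 had a log2 fold change of -0.01 (edgeR adjusted p = 0.984) and Zfp36 one of -0.27 (edgeR adjusted p = 0.752). Fkbp5, a chaperone of the glucocorticoid receptor, rose to 46.1, 48.6 and 57.5 CPM in IRF4-deficient libraries, against 24.8, 27.2 and 29.9 CPM in WT libraries (1.86-fold, edgeR adjusted p = 0.000185). Anxa1, an anti-inflammatory annexin, rose 1.55-fold (edgeR adjusted p = 0.00107), and the kinase gene Sgk1 rose (log2 fold change 0.52, adjusted p 0.00505; 0.0508 without WT replicate 2). Tsc22d1 fell to 115.1, 126.4 and 139.4 CPM in IRF4-deficient libraries, against 228.2, 196.6 and 182.8 CPM in WT libraries (1.60-fold lower, edgeR adjusted p = 0.000106), and Cdkn1a, an inhibitor of the cell cycle, fell 2.04-fold (edgeR adjusted p = 0.000619). Immediate early genes, a sign of how cells were handled, summed to 2716 to 3270 CPM in IRF4-deficient libraries and 4881, 4261 and 1806 CPM in WT replicates 1 to 3, with 3 of 16 called lower; their part in these values was not tested.

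**Figure D5:**
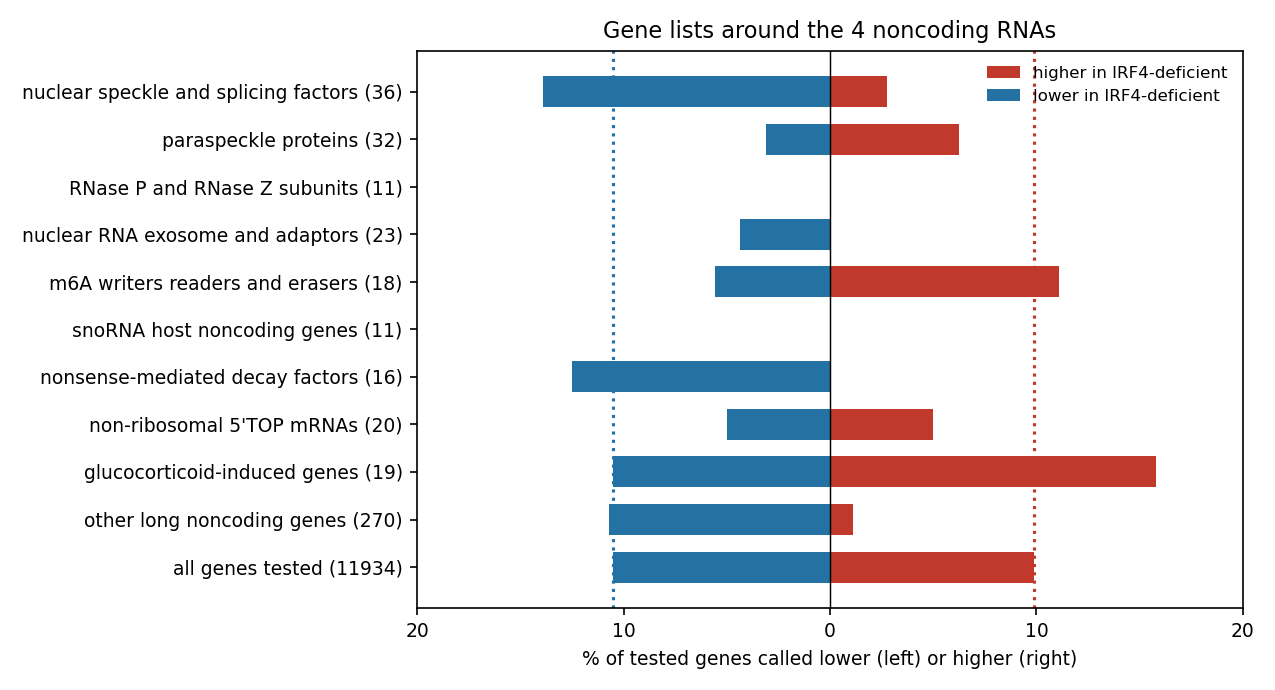
Share of tested genes called higher (right) or lower (left) in IRF4-deficient cDC2s at an edgeR adjusted p under 0.05, for 9 gene lists, the other long noncoding genes and all genes tested (numbers of tested genes in brackets). Dotted lines mark the shares over all genes, 9.87% higher and 10.5% lower; over all levels of expression together, long noncoding genes stand at 1.11% higher and 10.7% lower.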

How the data were processed

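RNA-seq libraries followed a standard Illumina scheme, per the labels' protocols. Whether RNA was selected by its poly(A) tail is not reported here. Its part in the levels and ratios of Malat1 and Neat1 was not tested. Raw counts, whole numbers by gene symbol, were deposited in 1 table for 3 IRF4-deficient and 3 WT libraries; no column was left unused. Per the submitters' processing notes, STAR, HTSeq and DESeq2 were used, without versions, on mm10; annotation and strand setting: not given in the sources used here. WT columns were matched to titles through the labels' source names. The sample sheet numbers in those names run from 19 to 21 for IRF4-deficient and 13 to 15 for WT libraries, so that order and genotype cannot be told apart.

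Genes were kept by filterByExpr (11934 of 14535), scaled by TMM and tested, IRF4-deficient against WT, with edgeR 4.0.16 (glmQLFit robust, glmQLFTest, R 4.3.3), adjusted by Benjamini-Hochberg over all of them; a call is an adjusted p under 0.05. Fold changes carry a prior count of 0.125, and the SE comes from the F statistic. The common biological coefficient of variation was 0.156. This procedure was also run on simulated counts, drawn with that coefficient of variation for every gene, which is simpler than the spread in these data. Such a run cannot give the rate of false calls in these data, and nothing is concluded from it here. Members got no test. Other long noncoding genes are those so typed by GENCODE M21 (13061 symbols matched, 1474 did not) and not protein-coding in RefSeq, the second condition being added after seeing the data.

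The members and gene lists were chosen with earlier results of these data known. Named are all called and the nearest neighbours (some genes that this rule names are not reported here), the 8 largest changes each way among long noncoding genes with at least 5 CPM and no overlap, the 5 genes most like each member, and per list up to 4 genes with the smallest p or any at 200 CPM or more. Tra2a, Sgk1, Xist, Tug1, Kcnq1ot1, Snord47 and Mir138-1 lie outside that rule and were chosen after their values were seen. Libraries of the same group differed by more than counting noise (chi-square per degree of freedom 7.66 to 15.9). Alternatives were DESeq2 1.42.0, its size factors in edgeR, library totals alone, Malat1 and Rn45s out of library sizes, no filter, the replicate number as a block, other definitions of long noncoding genes, and leaving out each library.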

Additional observations from a re-analysis of the deposited data

How the results depend on the processing

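The direction of all 4 members was the same under every alternative run. Leaving out each library gave log2 fold changes of -1.002 to -0.79 for Malat1, -0.46 to -0.16 for Neat1, -0.17 to -0.06 for Gas5 and -6.87 to -5.82 for 9530059O14Rik. Scaling by library totals alone moved the median of all genes by 0.08, to 0.08, and gave -0.81, -0.24, -0.05 and -6.13 for Malat1, Neat1, Gas5 and 9530059O14Rik; it called 1605 genes higher and 1005 lower, against 1178 and 1251 with TMM. The number of genes called was 1779 to 2431 when a library was left out, with the lowest without WT replicate 2. For other long noncoding genes it was 26 to 36, with 3 to 4 higher and 23 to 32 lower, and their median was -0.36 to -0.26; it was 10 where GENCODE type lincRNA alone was used, since fewer genes are tested. For the 9 lists of RNA biology it was 22, and 13 to 25 when a library was left out, with 14 without IRF4-deficient replicate 1 and 13 without WT replicate 2; for neighbours it was 4 to 6. The uncalled Zbtb37 changed sign without IRF4-deficient replicate 1 or WT replicate 3 (log2 fold changes of -0.181 to 0.0697 over the 6 libraries left out); the cause was not tested. Deviations of libraries with the same replicate number, as numbered in the titles, had r of -0.035, 0.055 and -0.03. With 3 libraries per group, this cannot settle whether the samples were paired. With the replicate number as a block, 2267 genes, 32 other long noncoding genes, 17 list genes and 5 neighbours were called. The members then had log2 fold changes of -0.88, -0.29, -0.13 and -6.17. Under this block the adjusted p of Srsf2 (0.0651), Hnrnph3 (0.0543), Smarcc1 (0.0859), Zfp445 (0.0558), Smg1 (0.0708) and Mettl14 (0.052) was above 0.05. Depth limits 9530059O14Rik in IRF4-deficient cells, where counting error alone gives a coefficient of variation of 40.8%.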
